A study of Sus scrofa with 2 samples.

Results

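The interval of chromosome 7 described here runs from 22000001 to 31000000 and was chosen by position, as the stretch that holds the swine leukocyte antigen (SLA) complex in the older pig assembly that the positions fit. Its members are the cytosines that both libraries list within it, 19283 of the 7002043 shared nuclear cytosines, in 90 bins of 100 kb. The remainder of chromosome 7, with 324762 shared cytosines, served as the reference. DNA methylation was measured by whole-genome bisulfite sequencing in longissimus dorsi, the long muscle of the back, from 2 female Tibetan pigs. One pig lived free in the Tibetan highland, where the altitude averaged 4000 m. The other received ordinary feed under experimental conditions on the Chengdu plain at 500 m and came from a line kept in the lowland for generations. Breed, sex and tissue were shared, while altitude, keeping and descent differed together. With 1 pig per group and 1 library per pig, no value below has a replicate error, and each contrast is between 2 libraries. Levels cannot be checked for the makeup of the muscle sample, since no cell type markers were measured.

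The SLA complex is the major histocompatibility complex (MHC) of the pig. Its class I genes encode proteins that present peptides from inside the cell to cytotoxic T cells, its class II genes encode proteins that present peptides from taken-up antigens to helper T cells, and its class III stretch holds complement and other immune genes. The pig complex is unusual in that the centromere lies between the class III and the class II genes. Class I genes form a family of near-identical members and many SLA genes are highly polymorphic, so short reads from this part of the genome are hard to place. In the RefSeq gene table for Sscrofa11.1, 21 chromosome 7 genes carry an SLA symbol. The order there begins with class I genes such as SLA-1, SLA-2 and SLA-3, continues through SLA-8, SLA-7 and SLA-6, and ends with class II genes from SLA-DRA, the alpha chain of the DR receptor, to SLA-DOA, a chain of a regulator of peptide loading. That table ends at 121.8 Mb on chromosome 7 whereas the listed cytosines reach 134.8 Mb. It therefore belongs to another assembly, and no bin below is assigned to a gene. No sequence of the files' assembly was used here.

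The interval was less methylated than the rest of the chromosome in both pigs. A methylation level is the share of methylated reads at a cytosine, and levels were averaged over shared cytosines. The high-altitude pig had a mean level of 64.1% in the interval and 74.9% on the rest of chromosome 7. The low-altitude pig had 62.6% and 73.7%. Averaged over both pigs the interval lay 10.97 points below the rest. Summed over reads, 59.4% of 242695 reads were methylated in the high-altitude pig (95% Wilson interval 59.2 to 59.6) and 57.9% of 230973 reads in the low-altitude pig (57.7 to 58.1). These intervals cover counting error only, and not all of it. A read is counted at each CpG it covers, and copies of a molecule cannot be recognised, so the intervals are too narrow.

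Bins within the interval were more unequal than bins elsewhere on the chromosome. Of the 90 bins, 62 held at least 100 shared cytosines, against 1061 of 1250 bins on the rest of chromosome 7. In the high-altitude pig these 62 bins had a level of 65.2% ± 11.6 (SD over bins) and ranged from 40.9% to 80.7%. The 1061 bins elsewhere had 74.5% ± 6.84 and ranged from 46.9% to 88.3%. In the low-altitude pig the corresponding values were 63.7% ± 11.5 and 73.4% ± 6.95. Among interval bins, 10 of 62 (16.1%) had a level over both pigs below 50%, compared with 3 of 1061 (0.283%) elsewhere. Only 1 of 62 bins (1.61%) exceeded 80%, compared with 192 of 1061 (18.1%). The profile had nearly the same shape in both pigs, with a Pearson correlation of 0.979 across the 62 bins and 0.962 across the 1061 bins elsewhere. Neighbouring bins of the same 2 libraries are not independent replicates, and the correlations are given as descriptions.

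**Figure D1:**
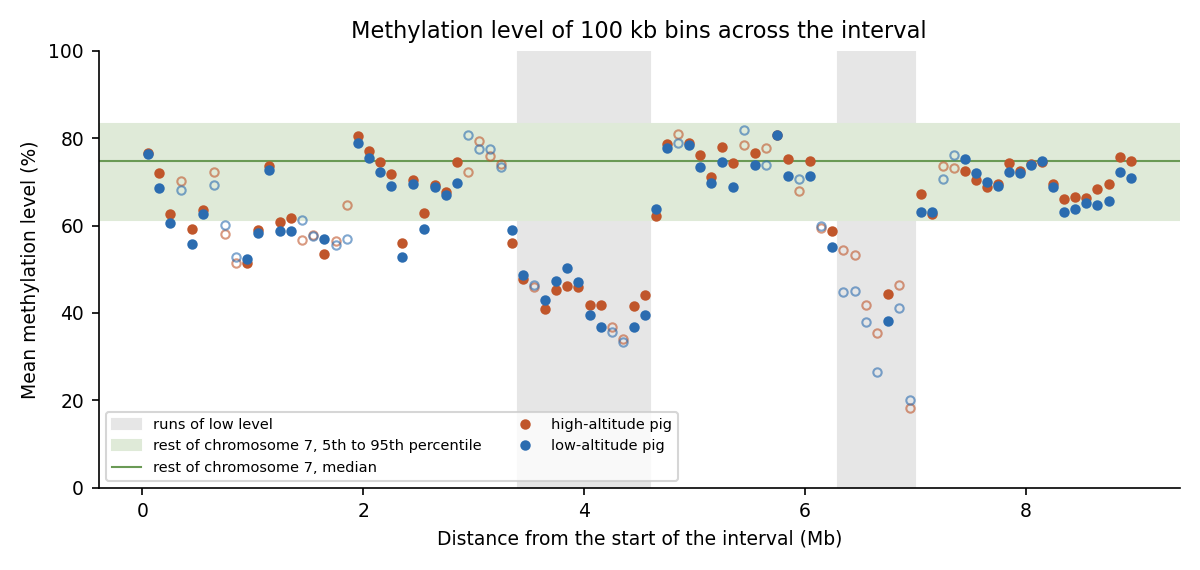
Mean methylation level (%, vertical axis) of each 100 kb bin against its distance from the start of the interval (Mb), for the high-altitude (orange) and low-altitude (blue) pig. Filled points are bins of at least 100 shared cytosines and open points have fewer; the green band and line give the 5th to 95th percentile and median of the rest of chromosome 7. The points of both pigs run together, and both leave the band in the grey runs, where levels lie mostly between 35% and 50%.

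2 runs of low level account for the lowest bins. A run was defined, after the values were seen, as at least 3 neighbouring bins with a level over both pigs below 50%, and chromosome 7 had 3 such runs, of which 2 lay in the interval. The first ran from 25400001 to 26600000, over 12 bins and 3144 shared cytosines, with mean levels of 43.9% at high altitude and 43.0% at low altitude. The second ran from 28300001 to 29000000, over 7 bins and 655 cytosines, with 45.2% and 38.5%. Since the runs were picked by level, these levels describe them and support nothing. The second run rested largely on a single bin, from 28700001 to 28800000, which held 473 of its 655 cytosines and was the only one of its 7 bins with at least 100. The remaining run on the chromosome, from 85800001 to 86100000, had 378 cytosines and levels of 49.5% and 47.4%. Without the 2 runs the interval still lay below the rest of the chromosome, with a gap of -6.02 points and levels of 69.0% and 67.6%.

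The step into and out of the first run was abrupt in both pigs. The bin from 25200001 to 25300000 had 74.1% and 73.5% over 70 cytosines, and the next had 56.1% and 59.0% over 524. Levels in the high-altitude pig then stayed between 40.87% and 47.78% in the 9 of 12 bins with at least 100 cytosines. The lowest of the other bins, from 26300001, had 34.03% over only 4 cytosines. After the run they rose from 44.0% and 39.6% in the bin ending at 26600000 to 62.2% and 63.9% in the next and 78.6% and 77.8% in the one after. A second group of bins of moderate level lay near the start of the interval. The bin from 22900001 to 23000000 had 51.4% and 52.3% over 234 cytosines, within the block from 22 to 23 Mb, which averaged 63.3% and 62.1%.

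Cytosines in the runs were rarely close to fully methylated, and levels from below 20% to at least 80% were represented. In the first run 8.40% of cytosines had a level of at least 80% at high altitude and 8.21% at low altitude. On the rest of chromosome 7 the shares were 54.1% and 51.6%, and in the interval outside the runs 43.5% and 41.1%. Levels below 20% were found at 17.5% of the first run's cytosines in either pig, against 2.06% and 2.10% on the rest of the chromosome. Every listed cytosine had at least 5 reads and 1 methylated read, so a level below 20% needs more than 5 reads. The median depth was 15 and 13 reads in the first run and 9 in either pig on the rest. The part of depth in these shares was not tested. Intermediate levels of 40 to 60% took 25.5% and 26.3% in the first run, against 12.7% and 13.9%. In the second run the share below 20% was 17.7% at high altitude and 24.4% at low altitude, and the share of at least 80% was 13.3% and 6.87%. The low mean of the runs thus went with measured site levels spread over all 5 classes. Sampling of few reads per cytosine also spreads measured levels, and its part was not tested.

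**Figure D2:**
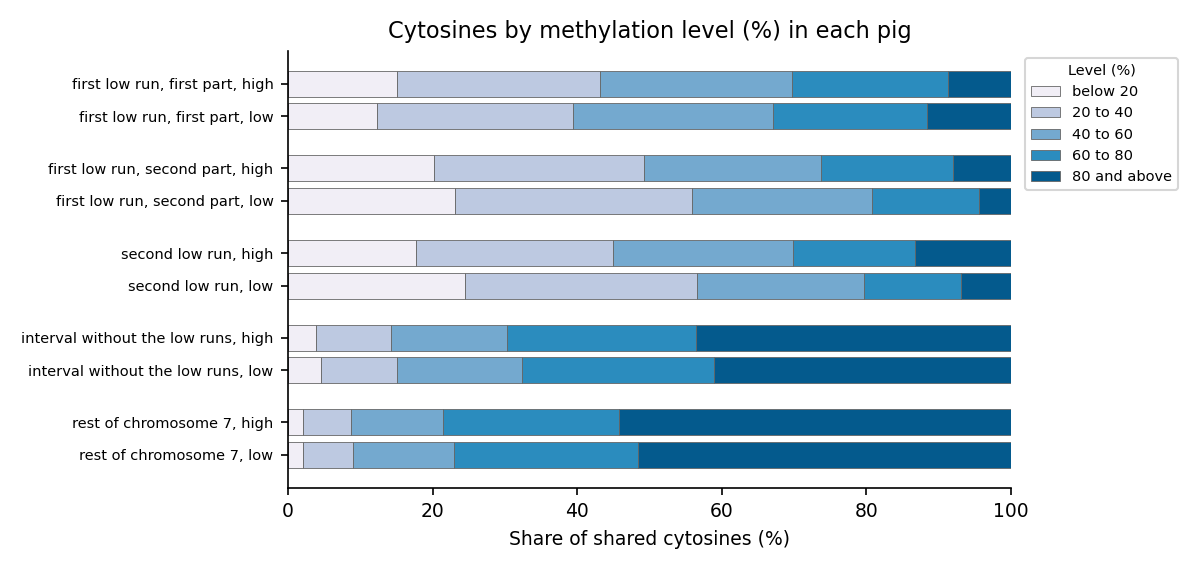
Share of shared cytosines (%, horizontal axis) in each class of methylation level (shades of blue, from below 20% to 80% and above) for the high- and low-altitude pig, in the parts of the 2 runs, the interval without them and the rest of chromosome 7. The darkest class takes 54.1% and 51.6% on the rest of the chromosome and at most 13.3% in any part of the runs.

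The most methylated bins of the interval reached the usual level of the chromosome. The bin from 27700001 to 27800000 had 80.7% in both pigs over 118 cytosines, that from 23900001 to 24000000 had 80.6% and 78.9% over 343, and that from 26900001 to 27000000 had 78.9% and 78.4% over 210. The last of these lay 300 kb beyond the end of the first run.

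Read depth was raised where the level was low. Over the whole interval the mean depth was 12.6 reads per shared cytosine at high altitude and 11.98 at low altitude, against 10.2 and 9.97 on the rest of the chromosome. In the first run it was 20.1 and 18.7 reads, with medians of 15 and 13, and in the second 15.3 and 19.97 reads. Outside the runs it was 10.9 and 10.3 reads. The low run on the rest of the chromosome, from 85800001 to 86100000, had 11.7 and 11.8 reads. More than 20 reads covered 36.7% and 29.2% of cytosines in the first run, compared with 4.50% and 4.35% on the rest of the chromosome. The deepest bins were from 26400001 to 26500000, with 21.5 and 31.5 reads, from 26100001 to 26200000, with 24.5 and 22.7, and from 26500001 to 26600000, with 17.2 and 25.5. Averaged over both pigs, 5 of 62 bins were deeper than the deepest bin elsewhere (17.5 reads), and 8 of 62 had a level below the lowest bin elsewhere (47.1%). Of these bins, 4 were both.

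Across the 62 bins, level and depth had a Pearson correlation of -0.84 and a Spearman correlation of -0.77, and across the 1061 bins elsewhere -0.44 and -0.33. Both measures come from the same reads. Every listed cytosine had at least 1 methylated read and a corrected p-value below 0.05, so the number of reads also bears on which cytosines are listed, and the part of this in the correlation was not tested. At shallow cytosines, with 5 to 7 reads in both pigs, the first run had 53.0% and 51.9% over 253 cytosines, whereas the rest of the chromosome had 76.0% and 74.7% over 75084. At 16 to 25 reads the first run had 41.4% and 41.1% over 211 cytosines and the rest 73.7% and 72.7%. The run was picked for its low level, so these values describe it and support nothing. From the shallow to the deeper class the level dropped by less on the rest of the chromosome than in the run.

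**Figure D3:**
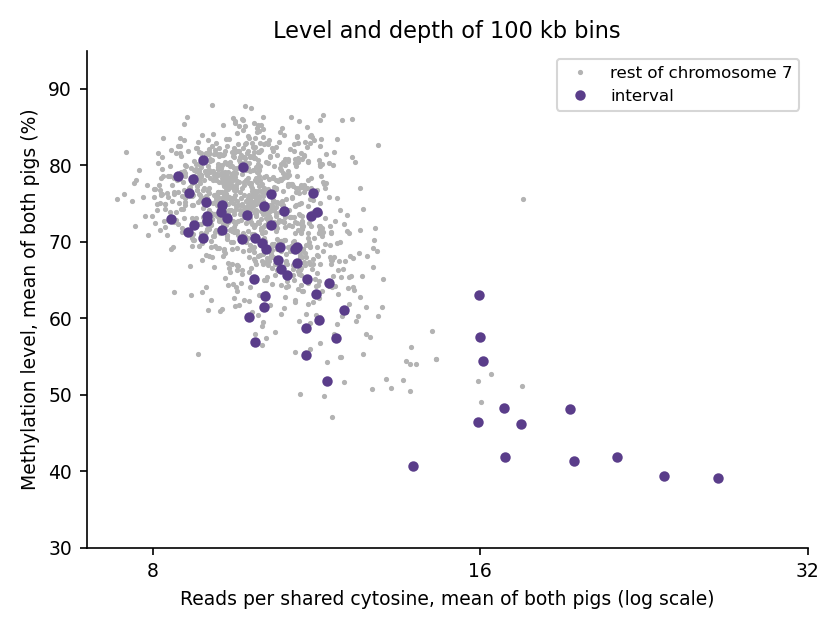
Methylation level averaged over both pigs (%, vertical axis) against reads per shared cytosine averaged over both pigs (horizontal axis, log scale) for 100 kb bins of at least 100 cytosines; purple points are the 62 bins of the interval and grey points the 1061 bins of the rest of chromosome 7. The interval's points run from the grey cloud down to the lower right, where 4 bins are both deeper than 17.5 reads and below 47.1%.

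Depth also differed between the pigs in these bins, in opposite directions along the interval. The ratio of mean depth, low over high, was 0.981 ± 0.043 (SD) over the bins elsewhere and 0.966 ± 0.159 over the interval's bins. It lay outside the range from 0.8 to 1.25 in 11 of 62 bins (17.7%), against 3 of 1061 (0.283%). In the part of the first run up to 26000000 the high-altitude pig was deeper, with 20.3 against 14.4 reads, a ratio of 0.709. In the part from 26000001, taken whole, the low-altitude pig was deeper, with 19.8 against 23.4 reads, a ratio of 1.18. That ratio rested on the bins from 26400001 and 26500001, with 1.47 and 1.49. The bins from 26000001, 26100001, 26200001 and 26300001 were deeper in the high-altitude pig, with ratios of 0.949, 0.924, 0.564 and 0.810. The last of them held only 4 shared cytosines. In the second run the ratio was 1.30, which rested on its fullest bin: over the 182 cytosines outside that bin the depths were 12.3 and 13.2 reads, a ratio of 1.07. Outside the runs, the bin from 24300001 to 24400000 had 19.5 reads at high altitude and 12.7 at low altitude.

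**Figure D4:**
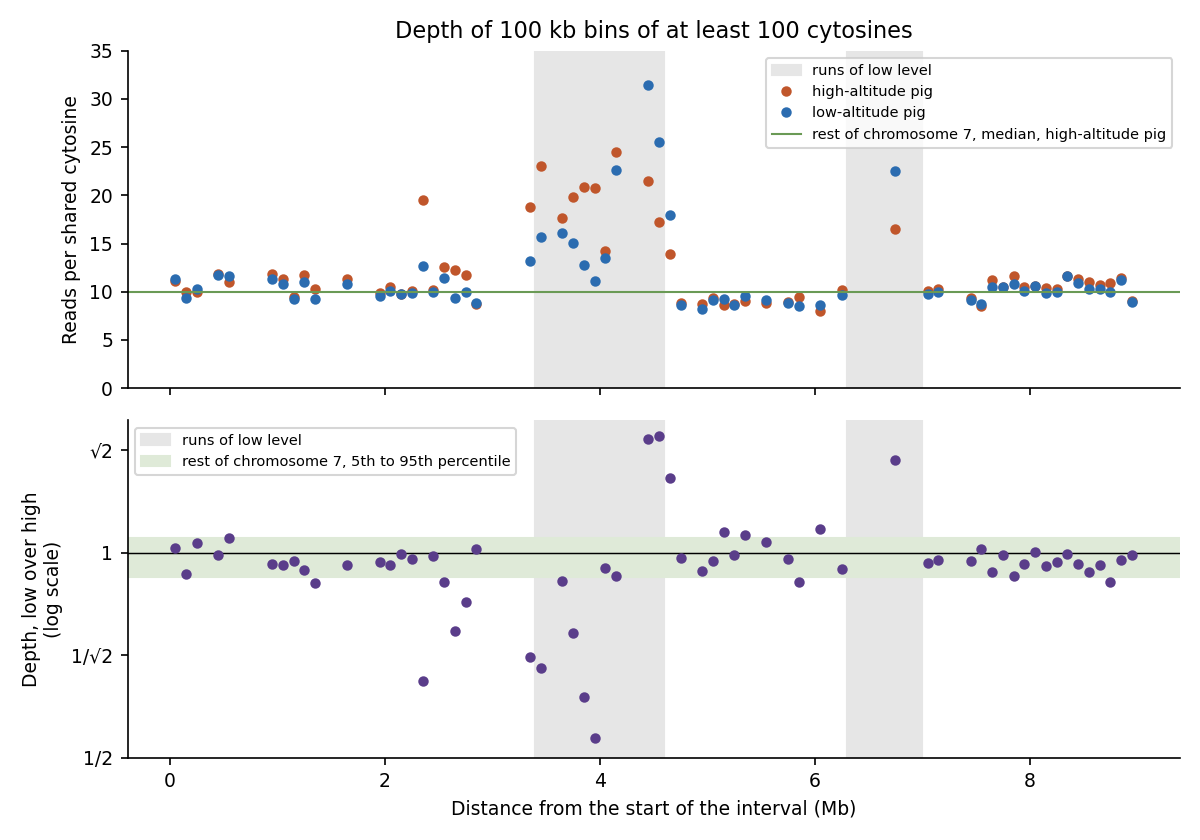
Reads per shared cytosine in each pig (upper panel; orange, high altitude; blue, low altitude) and the ratio of depth, low over high (lower panel, log scale), by 100 kb bin of at least 100 cytosines, against distance from the start of the interval (Mb). The ratio falls to 0.535 in the first part of the first grey run and reaches 1.49 in its second part, while most other bins stay in the green 5th to 95th percentile band of the rest of chromosome 7.

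The lists themselves were clearly unequal in 2 of these 3 stretches taken whole. Over the whole interval the high-altitude file listed 30171 cytosines and the low-altitude file 28449, of which 63.9% and 67.8% were shared. In the first part of the first run, 85.2% of the low-altitude list but 65.8% of the high-altitude list was shared, so that 861 cytosines were listed in the high-altitude pig alone and 287 in the low-altitude pig alone. In the second part of that run the lists were nearly equal in total, with 2093 and 2107 cytosines, of which 602 and 616 were in a single list. Its bins were unequal in opposite directions. The high-altitude list was the longer from 26100001, with 536 and 442 cytosines, and from 26200001, with 318 and 97. The low-altitude list was the longer from 26400001, with 406 and 602, and from 26500001, with 477 and 645. In the second run the low-altitude list was the longer, with 250 at high altitude and 532 at low altitude alone. Cytosines listed in a single library had levels near those of shared ones, at 47.0% at high altitude and 48.1% at low altitude in the first part of the first run. Every listed cytosine also had a deposited corrected p-value of at most 0.0489 at high and 0.0498 at low altitude. An unlisted cytosine may have too few reads, no methylated read or a higher corrected p-value, and these cases cannot be told apart.

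Shared cytosines were unevenly spread along the interval. Bins of at least 100 shared cytosines held 2.91 ± 1.38 per kb, close to the 2.97 ± 1.21 per kb elsewhere, and these are listed CpG cytosines and not the CpG density of the sequence. The richest bins were from 30100001 to 30200000, with 568 shared cytosines and levels of 74.5% and 74.9%, from 30000001 to 30100000, with 564, and from 30400001 to 30500000, with 555 and levels of 66.6% and 63.7%. The block from 30 to 31 Mb held 4.03 per kb and that from 28 to 29 Mb 1.03 per kb, the most and the fewest of the 9 blocks of 1 Mb. Of the bins with at least 100 cytosines, those from 27100001, 27700001 and 28200001 had the fewest, with 100, 118 and 118. Level and number of shared cytosines had a Pearson correlation of -0.19 across the 62 bins and 0.16 across those elsewhere.

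The pigs were then compared along the interval, low altitude minus high altitude. Over all shared cytosines the difference was -1.45 ± 0.16 points (SE over cytosines), against -1.17 ± 0.037 points on the rest of chromosome 7. The SE describes the spread over cytosines of these 2 libraries and not over pigs. The difference over the interval was therefore close to that of the chromosome, but it was made of blocks that differed from one another. The block from 25 to 26 Mb was higher in the low-altitude pig, with 49.6% at high and 51.7% at low altitude, a difference of 2.11 ± 0.42 points. The adjoining block from 26 to 27 Mb had 52.4% and 49.4%, a difference of -2.99 ± 0.43 points. The block from 28 to 29 Mb had 53.0% and 47.7%, a difference of -5.25 ± 0.68 points, and lay below the lowest of 126 blocks of at least 500 shared cytosines elsewhere, which ranged from -3.60 to 2.06 points. The block from 25 to 26 Mb lay just above the top of that range.

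The other 6 blocks were lower in the low-altitude pig. Their differences were -1.245 ± 0.571 points from 22 to 23 Mb, -0.95 ± 0.53 from 23 to 24 Mb, -2.17 ± 0.42 from 24 to 25 Mb, -2.52 ± 0.57 from 27 to 28 Mb, -0.26 ± 0.45 from 29 to 30 Mb and -1.74 ± 0.35 from 30 to 31 Mb. The last 2 blocks had levels of 70.0% and 69.7%, and of 69.9% and 68.1%. The block from 27 to 28 Mb had the highest level of the 9, with 75.8% and 73.3%.

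The contrast between neighbouring blocks was present on each strand. On the plus strand alone the difference was 2.18 ± 0.61 points from 25 to 26 Mb, -3.44 ± 0.62 from 26 to 27 Mb and -4.45 ± 1.013 from 28 to 29 Mb. On the minus strand it was 2.04 ± 0.59, -2.56 ± 0.59 and -6.02 ± 0.91 points. At cytosines of equal depth in both pigs these 3 blocks kept their sign but were smaller, with 0.61 ± 1.68 points over 173 cytosines, -0.90 ± 1.46 over 189 and -3.21 ± 2.63 over 103, none larger than 2 SEs. The block from 24 to 25 Mb fell in size from -2.17 points over cytosines to -1.01 over reads. The block from 29 to 30 Mb had -1.03 ± 0.61 points on the plus and 0.61 ± 0.68 on the minus strand. Strands of a library share the animal and the preparation, so their likeness shows only that the reads of either strand gave the same sign.

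Within the first run the sign of the difference changed at about 26 Mb. The cut at 26000000 followed no rule and was set after the run was picked by its values. The like signs on either side of it therefore describe the run and support nothing. Up to 26000000 the levels were 45.5% at high and 47.5% at low altitude, 2.08 ± 0.49 points apart over 1653 cytosines, and all 5 bins with at least 100 cytosines were higher in the low-altitude pig. From 26000001 they were 42.1% and 37.9%, -4.18 ± 0.49 points over 1491 cytosines, and all 4 such bins were lower. In the second run the difference was -6.65 ± 0.83 points, and -8.01 ± 1.70 points over the 182 cytosines outside its fullest bin. Only the mean depths were near each other there, at 12.3 and 13.2 reads. By bin the ratio ran from 0.831 in the bin from 28300001 to 2.55 in that from 28500001, so these cytosines were not matched for depth. The pig with fewer reads had the higher level in each of these 3 stretches taken whole, and the part of depth in the difference was not tested. Bin by bin this did not hold throughout. The bins from 26000001 and 26100001 went the other way, with more reads and a higher level at high altitude. So did the bins of fewer than 100 cytosines from 26200001, 26300001, 28300001, 28400001 and 28800001. At cytosines of equal depth in both pigs the differences were 0.53 ± 1.86 points over 115 cytosines, -2.77 ± 2.19 over 99 and -5.79 ± 4.15 over 41, with SEs too large to give a sign. In 5 classes of depth, with both pigs in the same class, the first part of the first run differed by 0.63 ± 2.16 points at 5 to 7 reads, 3.17 ± 2.60 at 8 to 10, 0.68 ± 1.69 at 11 to 15, 3.60 ± 1.39 at 16 to 25 and 1.05 ± 1.30 at 26 to 50. Only the class of 16 to 25 reads exceeded 2 SEs. The second part differed by -3.48 ± 2.41, -0.62 ± 3.06, -5.81 ± 2.19, -4.55 ± 1.51 and -5.47 ± 1.28 points in the same classes, of which the last 3 exceeded 2 SEs. Across the 62 bins, difference and depth ratio had a Pearson correlation of -0.43 and a Spearman correlation of -0.26, and across those elsewhere 0.018 and 0.012.

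Bins past 3 points in either direction were counted as a measure of size, with no test. In the interval 20 of 62 bins (32.3%) were at least 3 points lower in the low-altitude pig, and 15.3% of the bins elsewhere were. At least 3 points higher were 2 of 62 (3.23%), and 1.79% of those elsewhere. Without the bins of the 2 runs the counts were 16 of 52 (30.8%) and 1 of 52 (1.92%). After the mean difference of the rest of the chromosome was taken off, 6 of 62 bins (9.68%) were lower and 6 higher, against 5.47% and 6.69% elsewhere.

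The bins with the largest difference lay both inside and outside the runs. The largest negative difference was in the bin from 28700001 to 28800000, with 44.4% and 38.3%, or -6.13 ± 0.95 points. The bin from 27300001 to 27400000, of ordinary level and depth, had 74.3% and 68.8% over 278 cytosines, a difference of -5.47 ± 1.39 points at 8.99 and 9.54 reads. Bins of the first run followed, at -5.09 ± 0.95 points from 26100001 and -4.76 ± 1.05 points from 26400001, and the bin from 24800001 to 24900000 had 74.6% and 69.9%, or -4.76 ± 1.49 points. Each of these 5 bins was lower in the low-altitude pig on both strands. Over reads the bin from 26400001 had only -2.39 points, and the others lay between -6.28 and -4.98. At cytosines of equal depth the difference was -3.84 ± 3.38 points from 28700001, -4.30 ± 3.20 from 27300001 and -1.62 ± 3.83 from 26100001. It was -3.84 ± 5.62 from 26400001 and -7.12 ± 3.78 from 24800001.

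Positive differences were smaller as measured, without the mean difference of -1.17 points on the rest of chromosome 7 taken off. The bin from 25800001 to 25900000 had 46.1% and 50.4%, a difference of 4.28 ± 1.04 points, with 5.31 ± 1.504 on the plus and 3.14 ± 1.41 on the minus strand, at 20.9 and 12.8 reads. That from 25300001 to 25400000, at the edge of the first run, had 2.90 ± 0.92 points. The bin from 25600001 to 25700000 had 2.02 ± 1.37 points, and -2.02 ± 4.49 over its 20 cytosines of equal depth. The bin from 23600001 to 23700000 had 3.51 ± 2.10 points, with 7.16 ± 2.42 on the plus and -4.44 ± 3.87 on the minus strand, so its sign was not shared by the strands. The bin from 29400001 to 29500000 had 72.6% and 75.2%, or 2.61 ± 1.52 points.

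**Figure D5:**
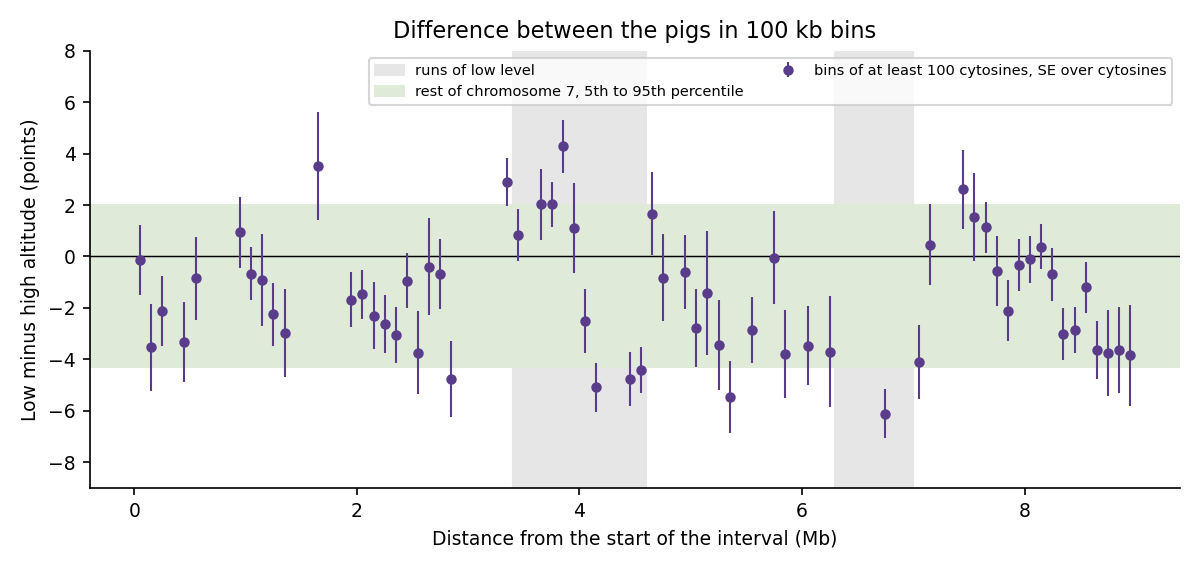
Difference in mean level, low minus high altitude (points, vertical axis), of 100 kb bins of at least 100 shared cytosines against distance from the start of the interval (Mb); bars are the SE over cytosines and the green band is the 5th to 95th percentile of the rest of chromosome 7. Bins of the first grey run lie above 0 in its first part and below 0 in its second, from 4.28 to -5.09 points, and the single bin shown in the second run is at -6.13.

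At the scale of 1 kb, few windows differed between the libraries. Windows of at least 5 shared CpGs, each with at least 5 reads in both pigs, were tested on summed reads by the two-sided Fisher's exact test with Benjamini-Hochberg adjustment over all 462691 nuclear windows, and a call needed an adjusted p under 0.05 with levels at least 20 points apart. In the interval 6 of 1296 windows (0.463%) were called, against 0.419% on the rest of chromosome 7 and 0.494% of all windows. The share of called windows was near the background. Higher in the low-altitude pig were 4 of 1296 (0.309%), against 0.159% on the rest of the chromosome, and lower were 2 of 1296 (0.154%), against 0.26%. Neighbouring CpGs share reads, which makes these p-values too small.

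The window with the largest difference was from 30095001 to 30096000, where 15 of 41 reads (36.6%) were methylated at high altitude and 32 of 41 (78.0%) at low, 41.5 points apart across its 5 CpGs (exact test, adjusted p = 0.048). Its 5 tested neighbours within 5 kb had mean levels of 75.8% and 74.3%. The window from 29151001 to 29152000 had 35.8% of 123 reads and 66.7% of 84 (7 CpGs; exact test, adjusted p = 0.0092). Its difference came from the minus strand, with 33.9% and 68.1%, whereas the plus strand had 62.5% of 8 and 58.3% of 12 reads. The window from 29990001 to 29991000 had 61.2% of 67 reads and 90.9% of 77 (adjusted p of the exact test 0.011), with 73.5% and 72.3% in 7 neighbouring windows. Here too the minus strand carried the difference, with 53.3% and 94.7%, whereas the plus strand had 77.3% of 22 and 80% of 20 reads, and 4 of its 6 CpGs were higher in the low-altitude pig. The fourth higher window, from 25363001 to 25364000 at the edge of the first run, had 40.8% of 213 and 61.7% of 149 reads (adjusted p of the exact test 0.028), and all 8 of its CpGs were higher in the low-altitude pig.

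The 2 windows lower in the low-altitude pig were each read on a single strand. From 24632001 to 24633000 the level was 83.2% (144 of 173 reads) and 60.2% (56 of 93 reads) over 5 CpGs of the plus strand (Fisher's exact test, adjusted p = 0.018). From 25422001 to 25423000, in the first run, it was 73.2% (82 of 112) and 42.2% (27 of 64) over 5 CpGs of the minus strand (exact test, adjusted p = 0.024), while 5 neighbouring windows had 47.8% and 51.4%. All 5 CpGs of each window were lower.

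Single CpGs, with the strands summed and at least 10 reads in each pig, were tested in the same way over all 2588389 nuclear CpGs and a call needed levels at least 25 points apart. In the interval 39 of 7503 (0.520%) were called, against 0.348% on the rest of chromosome 7 and 0.323% of all CpGs. Of the 39, 26 were lower in the low-altitude pig (0.347% of those tested), against 0.202% on the rest of the chromosome, and 13 were higher (0.173%), against 0.146%. In the 2 runs 14 of 1995 CpGs (0.702%) were called, and outside them 25 of 5508 (0.454%). Tested CpGs in the runs had a median of 25 and 23 reads, compared with 16 and 16 outside them and on the rest of the chromosome. More reads let smaller differences pass, and the part of depth in these shares was not tested.

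Called CpGs inside and outside the runs started from different levels. The runs were picked for their low level, so this difference describes them and supports nothing. Outside the runs the higher of the 2 libraries had a median of 90.9% and the lower 30%, close to 94.1% and 29.4% on the rest of the chromosome. In the runs the medians were 64.6% and 14.8%, and none of the 14 reached 90% in the higher library, against 15 of 25 (60%) outside them and 274 of 389 (70.4%) elsewhere. The largest losses in the low-altitude pig were at 26758234, with 17 of 17 reads methylated at high and 2 of 12 at low altitude (Fisher's exact test, adjusted p = 0.0047), at 24496091, with 12 of 13 and 3 of 19 (exact test, adjusted p = 0.018), and at 30552987, with 15 of 16 and 5 of 20 (exact test, adjusted p = 0.021). The largest gains were at 25225749, with 1 of 11 and 11 of 11 (exact test, adjusted p = 0.019), at 29990775, with 2 of 10 and 15 of 15 (exact test, adjusted p = 0.022), and at 29151756, with 3 of 23 and 12 of 14 (exact test, adjusted p = 0.013). The last 2 lie in called windows. For 29 of the 39 CpGs another shared CpG with at least 5 reads in each pig lay within 100 bp, and these neighbours differed in the direction of the call by a median of 4.32 points, with the same sign as the call in 17 of 29. A sequence difference between the pigs at a CpG would also change its reads and was not tested.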

How the data were processed

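Bisulfite sequencing data of longissimus dorsi DNA from 2 pigs were used. The submitters' processing notes name Bismark 0.12.5; build, filters and duplicate treatment were not given in the sources used here. The deposited files give counts of methylated and unmethylated reads per cytosine, the level as a fraction and a raw and a corrected p-value, per the file headers. All deposited lines are CpG cytosines, each with at least 5 reads, 1 or more methylated, and a corrected p-value below 0.05. Levels were recomputed from the counts, and the deposited fraction and p-value were not used further. The lists held 10441737 and 10104425 nuclear cytosines with 99955761 and 95363149 reads at high and low altitude.

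Cytosines were joined by chromosome, position and strand. Bins needed at least 100 shared cytosines. Fisher's exact tests ran across all nuclear windows and CpGs with Benjamini-Hochberg adjustment, in Python 3.11.15 with numpy 2.4.6, pandas 2.3.3 and numba 0.67.0, and were tested on simulated data. Intervals are 95% Wilson intervals. Named bins are those of lowest (5) and highest (3) level, largest fall (5) and rise (5), greatest depth (3) and most (3) and fewest (3) cytosines; named windows and CpGs are the called ones of largest difference, up to 6 and 3 in each direction. Bins at the edges of the runs, and those from 22900001 and 24300001, were named after their values were seen. The interval and measures were chosen with earlier results of these data known. Alternatives covered depth, strand, bin and window size, thresholds and weighting.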

Additional observations from a re-analysis of the deposited data

How the results depend on the processing

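No paired analysis was possible because each group has 1 pig. The interval's difference of -1.45 points stayed within its 95% interval over cytosines under every alternative run, from -1.63 points at cytosines of equal reads to -1.34 without the 2 runs. Its level relative to the rest of chromosome 7, -10.97 points, stayed negative. It was -15.26 with at least 10 reads, -10.53 without cytosines deeper than 50 reads, -15.18 over reads, -11.40 on the plus and -10.55 on the minus strand, -7.58 at cytosines of equal reads, -6.02 without the 2 runs and -9.46 as a mean over bins. The last 2 choices were made after seeing the data.

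The count of bins at least 3 points lower, 20 of 62, was 6 of 26 with at least 10 reads, 12 of 42 on the plus and 11 of 40 on the minus strand, 39 of 116 for 50 kb bins, 7 of 35 for 200 kb bins, 7 at 4 points and 6 after the chromosome's mean difference was taken off. The share stayed above that of the rest of the chromosome in each. The count higher, 2, was 1 on the plus strand, 9 for 50 kb bins, 1 for 200 kb bins, 1 at 4 points, 6 after the mean was taken off and 1 without the runs. On the plus strand its share of 2.38% was below the 2.89% elsewhere. No bin of the interval kept 100 cytosines of equal reads, so that count was not run.

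Called windows, 6, numbered 3 with at least 10 reads per CpG, 1 with at least 10 CpGs, 2 in windows of 2 kb and 3 at 30 points; with at least 10 reads and in windows of 2 kb the share, 0.779% and 0.132%, was below the 0.977% and 0.388% elsewhere. Without cytosines deeper than 50 reads the window share was also below that elsewhere, at 0.393% against 0.401%. Called CpGs, 39 of 7503, numbered 22 of 16528 with at least 5 reads (0.133% against 0.0676% elsewhere), 19 of 7024 with each cytosine alone (0.271% against 0.219%) and 25 of 5508 without the runs (0.454% against 0.348%). At cytosines of equal reads 5 of 9 blocks moved beyond the 95% interval of their difference over all shared cytosines, and all 9 kept their sign. That interval leaves out the SE of the equal-read cytosines, from 1.03 to 2.63 points by block. A move beyond it can therefore lie within the error of these fewer cytosines. Of 20 named bins 8 changed sign under at least 1 alternative, and so did the block from 29 to 30 Mb on the minus strand (0.61 points); each was within 2 SEs of 0 to begin with. The bin from 23600001 changed sign with at least 10 reads (-0.74 points) and on the minus strand (-4.44), that from 28200001 on the plus strand (2.02) and that from 25600001 at equal reads (-2.02). The bin from 27100001 went from -1.43 to 5.31 and that from 30100001 from 0.38 to -2.06 points with at least 10 reads, and that from 30000001 from -0.11 to 4.65 at equal reads. Those from 26900001 and 27700001 reached 1.08 and 0.99 points. The cause of these changes was not tested. A median of 10 and 9 reads per shared cytosine in the interval limits single-site levels to coarse steps.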

Other observations

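At 10 kb, the ratio of depth between the pigs was more extreme than in the 100 kb bins. Of 410 bins of 10 kb with at least 20 shared cytosines in the interval, 14 (3.41%) had a low-over-high ratio below 1/1.5 and 10 (2.44%) above 1.5, against 11 of 7628 (0.144%) and 5 (0.0655%) on the rest of chromosome 7. The lowest ratio, 0.409, was in the bin from 25960001 to 25970000, with 25.02 reads at high and 10.2 at low altitude and similar levels of 49.5% and 51.0%. The highest, 3.07, was in the bin from 28710001 to 28720000, with 11.07 and 33.98 reads and levels of 42.0% and 41.4%. The bin from 24340001 to 24350000, outside the runs of low level, had 44.4 and 19.9 reads over 105 cytosines and levels of 62.7% and 67.4%. In the bin from 26490001 to 26500000 the depths were 25.1 and 51.7 reads and the levels 39.9% and 35.7%. The choice of these bins followed their values, and whether copy number or read placement differed between the pigs was not tested.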
